A study of Mus musculus with 6 samples.

Results

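The 33 genes described here carry out and control the making of fatty acids and triglycerides: the enzymes that build and modify fatty acids, the acyltransferases that join them to glycerol, and the factors that regulate both. They were picked by name as lipogenic enzymes, desaturases, acyltransferases and their regulators. The rule uses no measured value, but the names were chosen with earlier results of these data known. Each of the 33 names was found once among the 29752 genes of the files. RNA was sequenced from aortas of C57BL/6 mice aged 15 weeks, in 3 libraries labelled wild type and 3 labelled PALMD+/-, called heterozygotes below. Mice of both genotypes were kept on normal diet for 7 weeks, beginning when they were 8 weeks old. How the Palmd allele was altered is not stated in the labels, nor whether the libraries stem from different animals. The tests therefore measure the spread between these libraries, which may be technical. Values are in FPKM, reads scaled by the gene's length and the depth of its library, and are given below in the order of replicates 1 to 3. Palmd reached 5.49, 7.88 and 10.1 FPKM in the wild-type libraries, compared with 5.31, 7.19 and 6.21 FPKM in the PALMD+/- libraries, so the groups overlapped and its level does not check the genotype labels.

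Fatty acids are built in the cytosol from acetyl-CoA, which comes from citrate or acetate, is carboxylated to malonyl-CoA and is condensed by fatty acid synthase into palmitate. Elongases and desaturases lengthen and bend the chain, and a series of acyltransferases and phosphatases attaches the chains to glycerol-3-phosphate to give triglyceride. Fat cells and liver are the tissues best known for this pathway, and the aorta is surrounded by perivascular fat. SREBP-1c (Srebf1), ChREBP (Mlxipl), PPAR-gamma (Pparg) and C/EBP-alpha (Cebpa) are its main transcriptional regulators.

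The libraries held the marker genes of an arterial wall, with the smooth muscle genes Acta2 at 3701 to 8367 FPKM and Myh11 at 612 to 1166 FPKM, and also those of fat. The smooth muscle marker Tagln was far lower, at 2.12 to 4.29 FPKM, and the reason was not tested. All 10 markers of white adipocytes were above 0 in every library. Summed, they reached 1747, 2665 and 3918 FPKM in the wild-type libraries, compared with 1505, 5159 and 2053 FPKM in the PALMD+/- libraries. Heterozygote replicate 2 stood apart from the rest. Its mean correlation with the other libraries was 0.930, against 0.960 to 0.971 for the others, and it had the lowest depth, 17283951 reads against 18009030 to 18372131. It also had the lowest value of all 7 smooth muscle markers and of 6 of 7 endothelial markers, and the highest value of 5 of 6 Schwann cell markers. In bulk tissue, fewer cells of a type and less RNA per cell cannot be told apart.

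For no member did the difference between the genotypes pass the test against the spread of the libraries. All 33 reached 1 FPKM in at least 3 libraries and were tested, and 0 passed limma's test at an adjusted p under 0.05. Over all 12620 genes tested the share called was 0%. Likewise 0 members had an unadjusted p under 0.05, a level reached by 6.5% of all tested genes. The members' adjusted p ranged from 0.807 to 1.00 (limma). Of the 33, 14 had a log2 fold change (heterozygote minus wild type) above 0 and 19 below 0, with a median of -0.24, against a median of 0.01 over all tested genes.

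What the members showed was a wide range between libraries of the same genotype. The median ratio of the highest to the lowest library was 6.41 over the members and 1.52 over all tested genes. For 25 of the 33 members heterozygote replicate 2 was the highest and heterozygote replicate 1 the lowest of all 6 libraries, an order found in 9.55% of all tested genes. Heterozygote replicate 2 was the highest for 26 members (26.4% of all tested genes) and heterozygote replicate 1 the lowest for 27 (14.7%). Heterozygote replicate 2 was the lowest library for 3 members, Elovl1, Lpin2 and Lpin3, where this held for 34.3% of all tested genes. The members together reached 2340.1, 2382 and 5146 FPKM in the wild-type libraries, compared with 1027, 11063 and 1936 FPKM in the PALMD+/- libraries. The 2 genotypes therefore overlapped, with the heterozygotes at both ends.

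**Figure D1:**
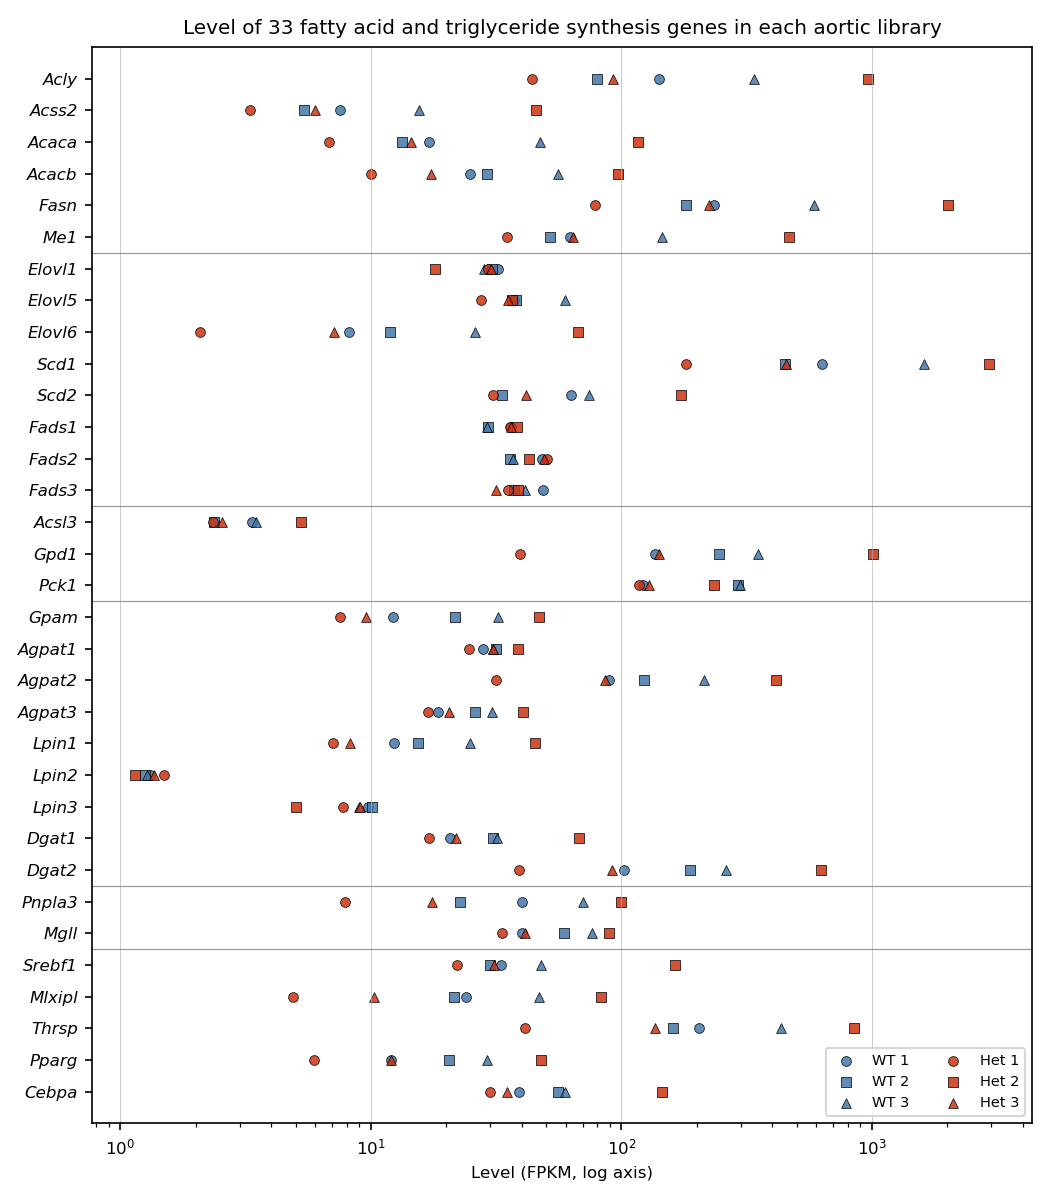
Level of each of the 33 genes (rows, grouped by role with grey lines: fatty acid building, elongation and desaturation, activation and glycerol backbone, acyltransfer and triglyceride assembly, lipid remodelling and lipolysis, regulators) in FPKM on a log axis, with 1 point per library (blue, wild type; red, heterozygote; circle, square and triangle for replicates 1, 2 and 3). Heterozygote replicate 2 is the highest point in 26 rows and heterozygote replicate 1 the lowest in 27.

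The 6 genes that make palmitate and its precursors spread most by role, with a median ratio of highest to lowest library of 15.5. Fatty acid synthase, Fasn (ENSMUSG00000025153, GRCm38 chromosome 11, 120805846 to 120824547), reached 234, 181 and 589.6 FPKM in the wild-type libraries, compared with 78.8, 2004 and 224 FPKM in the PALMD+/- libraries. Heterozygote replicate 2 had 5.99 times the wild-type mean, replicate 1 had 0.235 times and replicate 3 had 0.668 times. The values rest on 15747 to 379192 reads per library, so counting error is small beside this spread. The wild-type mean of 335 ± 222 FPKM compared with 769 ± 1072 FPKM for PALMD+/- (SD, n = 3), which gave a log2 fold change of 0.17 (limma, SE 1.16, adjusted p = 0.992) with a 95% interval of -2.62 to 2.96. The interval is wide enough to hold large changes in either direction.

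ATP citrate lyase, Acly (chromosome 11, 100476353 to 100528000), which makes cytosolic acetyl-CoA from citrate, reached 141, 80.1 and 338 FPKM in the wild-type libraries, compared with 44.0, 964 and 92.5 FPKM in the PALMD+/- libraries. Its log2 fold change was 0.02 (SE 1.16, limma adjusted p = 1.00). Acetyl-CoA carboxylase 1, Acaca (chromosome 11, 84129672 to 84401651), which makes the malonyl-CoA used for synthesis, reached 17.1, 13.3 and 47.1 FPKM in the wild-type libraries, compared with 6.82, 117 and 14.4 FPKM in the PALMD+/- libraries (log2 fold change 0.06, SE 1.02, limma adjusted p = 0.997). Both genes had the same order of libraries as Fasn at the ends, with heterozygote replicate 2 first, wild type replicate 3 next and heterozygote replicate 1 last. Acacb, the carboxylase at the mitochondrion whose product restrains fatty acid oxidation, averaged 36.7 ± 16.9 FPKM (wild type; SD, n = 3 here and below) and 41.5 ± 48.3 FPKM (PALMD+/-), and Acss2, which makes acetyl-CoA from acetate, at 9.51 ± 5.37 and 18.2 ± 23.6 FPKM. The malic enzyme Me1, a source of NADPH, reached 62.5, 51.9 and 146 FPKM in the wild-type libraries, compared with 35.0, 467 and 64.1 FPKM in the PALMD+/- libraries (log2 fold change 0.39, SE 0.96). Acaca and Me1 share transcript sequence with other genes, so their values depend on how shared reads were counted. Of the distinct 50-base stretches of the Acaca transcripts, 30.4% also occur in transcripts of 202 other genes, and of those of Me1 22.9% occur in the pseudogenes Gm7049 and Gm7329. The other 4 genes of this group share none.

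**Figure D2:**
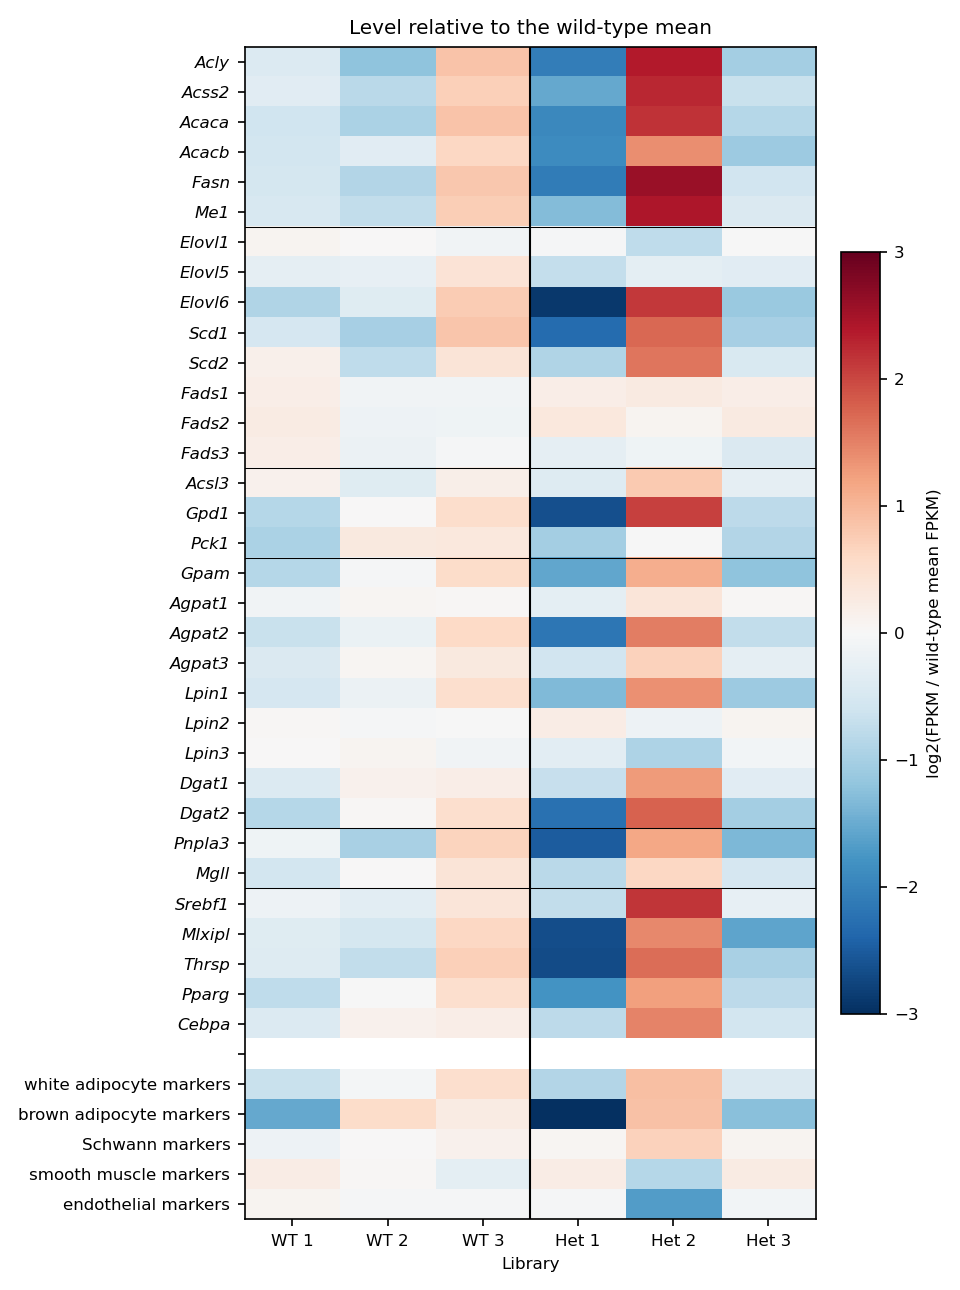
Level of each gene in each library as log2 of its ratio to the wild-type mean (red, above; blue, below; scale from -3 to 3), with black lines between roles and, at the bottom, the same for the summed FPKM of 5 lists of cell type markers, where values past the ends of the scale take the end colour. The columns of wild type replicate 3 and heterozygote replicate 2 are mostly red and that of heterozygote replicate 1 mostly blue, while Elovl1, Fads1, Fads2, Fads3 and Lpin2 are pale in most libraries.

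The chain-modifying enzymes divided into members that spread and members that hardly did. Scd1, the stearoyl-CoA desaturase that introduces the first double bond and the member with the highest mean (1043 FPKM), reached 633, 448 and 1607 FPKM in the wild-type libraries, compared with 181, 2940.1 and 452 FPKM in the PALMD+/- libraries (log2 fold change -0.30, SE 1.04, limma adjusted p = 0.985). Elovl6 (chromosome 3, 129532355 to 129638495), which elongates palmitate, had the largest ratio of highest to lowest library of all members, 32.3. It reached 8.17, 11.9 and 26.1 FPKM in the wild-type libraries, compared with 2.08, 67.2 and 7.12 FPKM in the PALMD+/- libraries (log2 fold change -0.30, SE 1.10, limma adjusted p = 0.986). Scd2, the neighbouring desaturase gene, had a narrower ratio of 5.67 and reached 63.1, 33.4 and 74.0 FPKM in the wild-type libraries, compared with 30.6, 174 and 41.7 FPKM in the PALMD+/- libraries. Of the 50-base stretches of the Scd1 and Scd2 transcripts, 4.56% and 3.97% occur in transcripts of other genes, mostly of the Scd family, and of those of Elovl6 3.98% occur in 89 other genes.

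The Fads desaturase genes spread little between libraries. Ratios of highest to lowest library were 1.32 for Fads1, 1.40 for Fads2 and 1.54 for Fads3, near the median of 1.52 over all tested genes. Fads1 reached 36.2, 29.4 and 29.1 FPKM in the wild-type libraries, compared with 36.0, 38.3 and 36.4 FPKM in the PALMD+/- libraries (log2 fold change 0.23, SE 0.12, limma adjusted p = 0.827). Fads2 reached 48.1, 36.1 and 36.9 FPKM in the wild-type libraries, compared with 50.6, 42.7 and 48.9 FPKM in the PALMD+/- libraries (log2 fold change 0.23, SE 0.15, limma adjusted p = 0.864). Fads3 reached 48.6, 37.3 and 41.3 FPKM in the wild-type libraries, compared with 35.3, 38.5 and 31.5 FPKM in the PALMD+/- libraries (log2 fold change -0.26, SE 0.14, limma adjusted p = 0.824). For each of the 3 the groups overlapped through 1 wild-type library, replicate 1 for Fads1 and Fads2 and replicate 2 for Fads3. These 3 genes lie beside each other on chromosome 19 (10041569 to 10196877 in GRCm38), the chromosome that also holds Scd1 and Scd2 (44293674 to 44407879). Elovl1, which elongates saturated very long chains, reached 32.1, 30.5 and 28.3 FPKM in the wild-type libraries, compared with 29.4, 18.0 and 30.1 FPKM in the PALMD+/- libraries, lowest in heterozygote replicate 2 (log2 fold change -0.26, SE 0.21, and -0.02 without that library).

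Elovl5, the elongase of polyunsaturated chains (chromosome 9, 77917364 to 77984519), was the single member whose groups did not overlap. It reached 37.3, 37.9 and 59.3 FPKM in the wild-type libraries, compared with 27.4, 36.6 and 35.2 FPKM in the PALMD+/- libraries. The highest heterozygote value and the lowest wild-type value were close, and the difference in means came mainly from wild type replicate 3, without which the log2 fold change was -0.19. Limma gave a log2 fold change of -0.41 with a 95% interval of -0.93 to 0.12 (SE 0.22, adjusted p = 0.824). A two-sided exact permutation test of the same libraries gave p = 0.1, the smallest possible with 3 libraries against 3. All heterozygote values lay below all wild-type values for 5.12% of all tested genes and above them for 7.8%, so that 1 lower and 0 higher members of 33 is close to that background.

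Promoter sequence was examined for the 27 members with an entry in the RefSeq table (GRCm38.p6), over the 250 bases before each annotated start site and on both strands. The CCAAT box, the letters bound by NF-Y, was present before at least 1 start site of 16 of the 27 members (59.3%), against 39.5% of 17492 protein-coding genes with an entry. The GC box GGGCGG was present for 18 of 27 (66.7%, against 45.8%), the E-box CACGTG for 4 of 27 (14.8%, against 7.61%), and the sterol regulatory element TCACNCCAC, bound by SREBP, for 1 of 27 (Mlxipl, against 1.2%). Members with several start sites had more windows to match in. Only these exact letters were searched, so sites with other letters were not counted. The windows of Acaca and Acacb lie inside their GENCODE gene spans. The windows of Fasn and Thrsp, among the members with the widest spread, and of Elovl5, the member without overlap, are shown. In them CCAAT (or ATTGG on the other strand) and CACGTG are in capitals. Those of Elovl6, Acly and Acaca, also among the members with the widest spread, held no CCAAT match and are not shown. Gpd1 had no entry. Fasn (chr11:120824548-120824797, minus strand) holds 3 CCAAT matches, of which the ones starting 62 and 59 bases before the start site overlap each other. Thrsp (chr7:97417551-97417800, minus strand) holds 2, and Elovl5 (chr9:77917115-77917364, plus strand) holds 2 and an E-box 161 bases before the start site. The RefSeq start site of Thrsp lies inside its GENCODE gene span, which reaches 97417730. Part of the Thrsp window, including its CCAAT matches, is therefore within that span. A match describes the letters of these windows, and binding was not measured.
Fasn: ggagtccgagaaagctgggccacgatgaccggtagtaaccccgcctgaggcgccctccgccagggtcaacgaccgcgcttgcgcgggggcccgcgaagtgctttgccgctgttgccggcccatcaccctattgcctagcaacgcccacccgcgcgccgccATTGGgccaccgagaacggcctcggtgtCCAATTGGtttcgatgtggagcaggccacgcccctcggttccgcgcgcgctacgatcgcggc
Thrsp: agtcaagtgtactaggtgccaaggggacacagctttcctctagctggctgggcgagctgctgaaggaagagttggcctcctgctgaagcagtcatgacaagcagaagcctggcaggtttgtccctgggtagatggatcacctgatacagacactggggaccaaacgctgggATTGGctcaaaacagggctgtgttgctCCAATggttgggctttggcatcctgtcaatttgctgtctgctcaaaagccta
Elovl5: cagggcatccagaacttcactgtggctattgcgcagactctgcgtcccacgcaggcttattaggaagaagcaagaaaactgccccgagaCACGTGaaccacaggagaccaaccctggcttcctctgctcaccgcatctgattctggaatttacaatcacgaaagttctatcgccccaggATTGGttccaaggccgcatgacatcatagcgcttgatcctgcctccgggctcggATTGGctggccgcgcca

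Among the genes that supply the glycerol backbone and activated fatty acids, Gpd1 spread as widely as Fasn, with ratios of highest to lowest library of 25.7 and 25.4. Gpd1 (chromosome 15, 99717515 to 99725005), the cytosolic glycerol-3-phosphate dehydrogenase, reached 136, 245 and 352 FPKM in the wild-type libraries, compared with 39.3, 1008 and 141 FPKM in the PALMD+/- libraries (log2 fold change -0.35, SE 1.12, limma adjusted p = 0.983). Part of its exons, 13.0% of their length, overlaps Gm16537 on the opposite strand, and the library kit is not described as keeping strand. Pck1, the phosphoenolpyruvate carboxykinase used for glyceroneogenesis in fat, behaved differently. It reached 122, 291 and 296 FPKM in the wild-type libraries, compared with 117, 235 and 129 FPKM in the PALMD+/- libraries, so that heterozygote replicate 2 was at 0.993 times the wild-type mean (log2 fold change -0.52, SE 0.43, limma adjusted p = 0.915). Its log2 fold change was -0.94 without wild type replicate 1 and -0.83 without heterozygote replicate 2. It lay between -0.40 and -0.30 without any 1 of the other 4 libraries. Acsl3, an acyl-CoA synthetase of lipid droplets, was the member with the second lowest mean, averaging 3.06 ± 0.608 FPKM (wild type) and 3.38 ± 1.64 FPKM (PALMD+/-).

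The enzymes of triglyceride assembly spread less than those of fatty acid building, with a median ratio of highest to lowest library of 3.94 against 15.5. Dgat2 (chromosome 7, 99153658 to 99182719), which adds the last acyl chain, was the widest of the 9. It reached 102, 188 and 262 FPKM in the wild-type libraries, compared with 38.9, 625 and 91.3 FPKM in the PALMD+/- libraries (log2 fold change -0.39, SE 0.98, limma adjusted p = 0.977). Its unrelated counterpart Dgat1 had a ratio of 3.94, averaging 27.8 ± 6.11 FPKM (wild type) and 35.5 ± 27.9 FPKM (PALMD+/-). Gpam, the mitochondrial acyltransferase of the first step, was at 22.1 ± 9.99 and 21.4 ± 22.3 FPKM.

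Of the acyltransferases of the next step, Agpat2, the form mutated in human lipodystrophy, had a ratio of 13.1 (142 ± 64.4 FPKM in wild type, 178 ± 208 FPKM in PALMD+/-), while Agpat1 and Agpat3 had ratios of 1.56 and 2.39 (30.2 ± 1.82 and 24.9 ± 5.99 FPKM for wild type, 31.3 ± 6.99 and 25.9 ± 12.6 FPKM for PALMD+/-). The lipins remove the phosphate before the last acylation. Lpin1, the main form in fat, was at 17.5 ± 6.46 and 20.1 ± 21.6 FPKM with a ratio of 6.41. Lpin2, the member with the lowest mean, was at 1.14 to 1.49 FPKM in all libraries (242 to 333 reads). Lpin3 reached 9.75, 10.1 and 8.96 FPKM in the wild-type libraries, compared with 7.75, 5.03 and 9.07 FPKM in the PALMD+/- libraries. It had the smallest adjusted p of all members (log2 fold change -0.39, SE 0.20, limma adjusted p = 0.807), and the groups overlapped through heterozygote replicate 3. Leaving out heterozygote replicate 2 gave Lpin3 a value of -0.17 on the same scale. Leaving out heterozygote replicate 3 gave -0.545, with an unadjusted p under 0.05 and a limma adjusted p of 0.920. That choice removes the library through which the groups overlapped, so it separates them by itself. In that fit 677 of 12620 tested genes had an unadjusted p under 0.05 in either direction, and Lpin3 was the 1 member of 33. Pnpla3, a lipid droplet protein related to the triglyceride lipase, was at 44.3 ± 23.9 and 41.7 ± 50.5 FPKM, and Mgll, the monoglyceride lipase, at 58.6 ± 18.2 and 54.7 ± 30.4 FPKM.

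All 5 regulators were highest in heterozygote replicate 2 and lowest in heterozygote replicate 1. Thrsp (Spot 14, chromosome 7, 97412938 to 97417730), a nuclear protein of lipogenic tissues, reached 203, 160.0 and 434 FPKM in the wild-type libraries, compared with 41.3, 851 and 136 FPKM in the PALMD+/- libraries (log2 fold change -0.51, SE 1.06, limma adjusted p = 0.967). Srebf1 reached 33.2, 29.8 and 47.9 FPKM in the wild-type libraries, compared with 22.1, 164 and 31.1 FPKM in the PALMD+/- libraries (log2 fold change 0.41, SE 0.71, limma adjusted p = 0.961). It lay between 22.1 and 47.9 FPKM in the 5 other libraries and at 4.43 times the wild-type mean in heterozygote replicate 2. Mlxipl ranged from 21.4 to 46.9 FPKM across the wild-type libraries and from 4.88 to 82.9 FPKM across the PALMD+/- libraries. For Pparg these ranges were 12.0 to 29.1 and 5.92 to 47.9 FPKM, and for Cebpa 39.0 to 59.7 and 29.9 to 145 FPKM.

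The direction of the genotype difference depended on the library left out, most of all on the heterozygote library. Without wild type replicate 3 the log2 fold change was above 0 for 19 members and below 0 for 14, with a median of 0.03. Without heterozygote replicate 2 the log2 fold change was below 0 for 30 of 33 members, with a median of -0.82. An unadjusted p under 0.05 was then reached by 13 members as lower, where 6.06% of all tested genes were lower at that level, and by 0 as higher, where 7.9% were. The 13 were 4 regulators (Mlxipl, Thrsp, Pparg and Cebpa), 4 assembly genes (Gpam, Agpat2, Lpin1 and Dgat2), Acacb, Elovl6, Fads3, Gpd1 and Pnpla3. Of these 0 passed the adjusted threshold (smallest limma adjusted p = 0.236; 0% of all tested genes). Heterozygote replicate 2 was the highest library for 26 members, so leaving it out could only lower their log2 fold changes. In heterozygote replicates 1 and 3 the mean log2(FPKM + 1) of the white adipocyte markers was 5.67 and 6.12. It was 6.28 to 7.30 in the wild-type libraries. The part of this marker difference in the 13 was not tested. Without heterozygote replicate 1 the log2 fold change was above 0 for 27 members, with a median of 0.26. There 0 members passed the adjusted threshold (0.00792% of all tested genes), and 0 had an unadjusted p under 0.05 (3.95% of all tested genes as lower and 3.86% as higher). Without wild type replicate 1, the wild-type library with the highest Fads1 and Fads2, these 2 genes reached an unadjusted p under 0.05 as higher (4.12% of all tested genes did) and Pck1 as lower (2.32% did). There 0 members passed the adjusted threshold (0.00792% of all tested genes). For Fads1, Fads2 and Pck1 that choice removes the library through which the groups overlapped, so it separates them by itself. Array quality weights, which gave heterozygote replicate 2 a weight of 0.170, put 8 members lower (10.6% of all tested genes) and Fads1 and Fads2 higher (15.8%) at an unadjusted p under 0.05, with 0 members past the adjusted threshold, where 1.84% of all tested genes passed. Fasn moved from 0.17 to -1.13 without heterozygote replicate 2 and to 1.19 without heterozygote replicate 1. For Scd1 the corresponding values were -0.30, -1.42 and 0.58. The 3 Fads genes kept their directions, with 0.17 to 0.33 for Fads1, 0.16 to 0.37 for Fads2 and -0.35 to -0.16 for Fads3 over all 6 ways of leaving out 1 library.

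**Figure D3:**
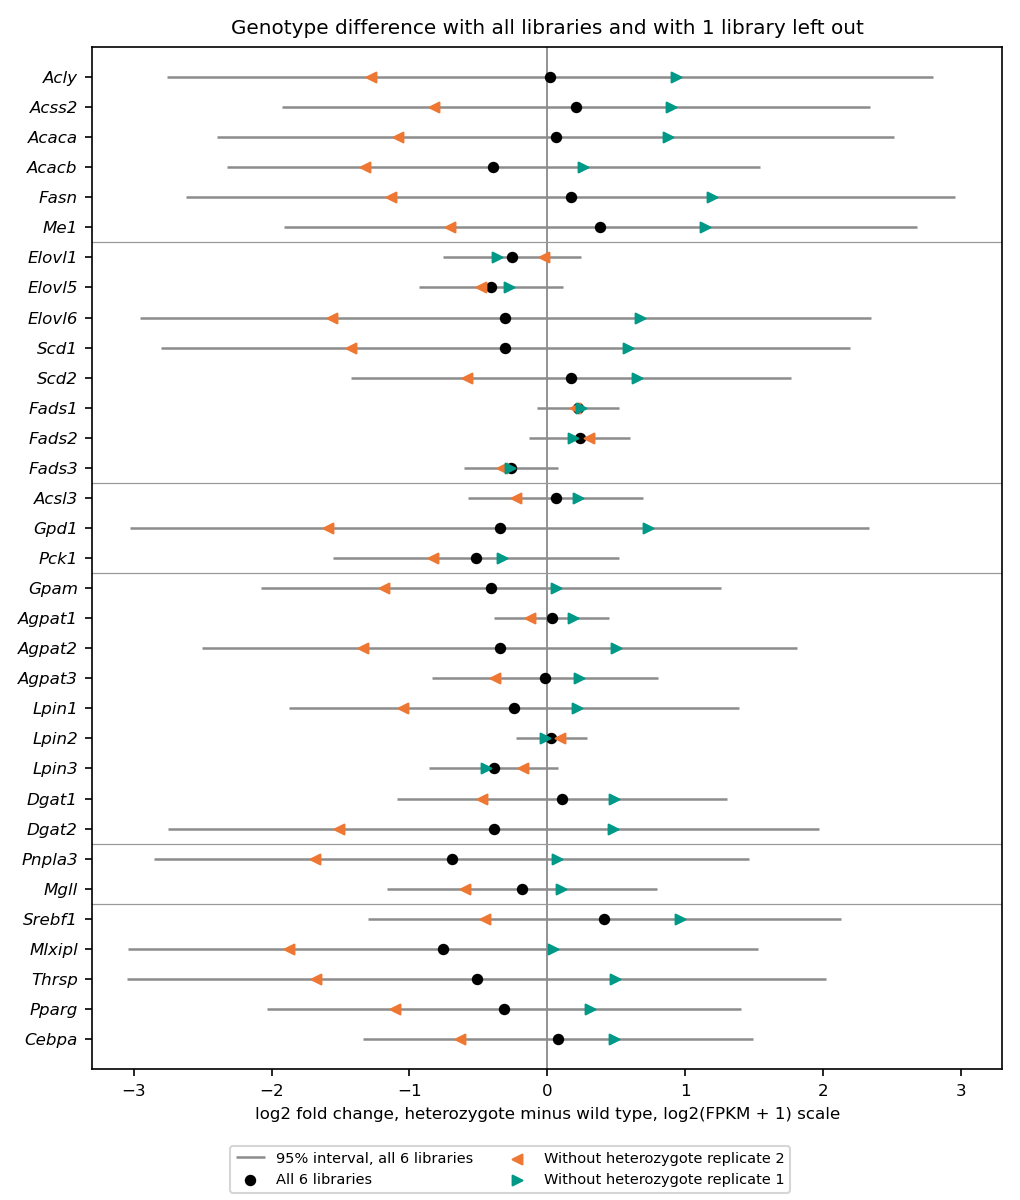
Log2 fold change of each gene, heterozygote minus wild type on the log2(FPKM + 1) scale, with all 6 libraries (black point, grey 95% interval from limma), without heterozygote replicate 2 (orange, 30 of 33 below 0) and without heterozygote replicate 1 (green, 27 of 33 above 0). The intervals of all 33 genes include 0.

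The levels of most members moved with those of the white adipocyte markers. The marker level, taken as the mean log2(FPKM + 1) of the 10 markers, ran from 5.67 in heterozygote replicate 1 through 6.12, 6.28, 6.55 and 7.30 in heterozygote replicate 3 and wild type replicates 1, 2 and 3 to 7.81 in heterozygote replicate 2. Over the 6 libraries 22 of 33 members had a Pearson r above 0.9 with it (66.7%), as did 7.43% of all tested genes. An unadjusted exact permutation p under 0.05 was reached with r above 0 by 25 members, where the share was 12.2% over all tested genes, and with r below 0 by 2 members (Elovl1 and Lpin2), where it was 15.6%. Adjusted over all 12620 relations computed, 8 members passed (r above 0, where 1.66% of all tested genes did): Acacb, Elovl6, Gpam, Agpat2, Lpin1, Dgat2, Pparg and Cebpa, each with the smallest p that permuting 6 libraries gives (0.00139, adjusted p = 0.0483). By Spearman's rho, adjusted the same way, 0 members and 0 of all tested genes passed. No relation was computed for the other marker lists, so none is shown to be particular to white fat. The brown adipocyte markers summed to 249, 1071 and 861 FPKM in the wild-type libraries, compared with 83.7, 1333 and 304 FPKM in the PALMD+/- libraries. The markers and the members were measured in the same libraries and share their scaling, and the part of the fat cells in the members' levels was not tested.

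Members differed in how closely they kept the order of the markers. Dgat2 had r = 0.977 (exact permutation p = 0.00139) and Spearman's rho = 1.00 (exact permutation p = 0.00278, adjusted p = 0.0760). Pparg had r = 0.981 and rho = 1.00, with the same p-values. Without the 2 libraries farthest from the median marker level, wild type replicate 3 and heterozygote replicate 2, r was 0.995 for Dgat2 and 0.984 for Pparg over 4 libraries. Fasn had r = 0.959 (exact permutation p = 0.00694, adjusted p = 0.0659) and rho = 0.829 (exact permutation p = 0.0583, adjusted p = 0.223), and r = 0.760 without the same 2 libraries. For Scd2 r was 0.877 (exact permutation p = 0.0222, adjusted p = 0.115) and 0.311 without them, so that its relation rested on those libraries. The negative r of Elovl1 rested on them too. It was -0.773 (exact permutation p = 0.0458, adjusted p = 0.169), with rho = -0.486 (exact permutation p = 0.356), and turned to 0.591 without them. Pck1 had r = 0.750 (exact permutation p = 0.107) and Fads1 r = -0.134 (exact permutation p = 0.812).

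**Figure D4:**
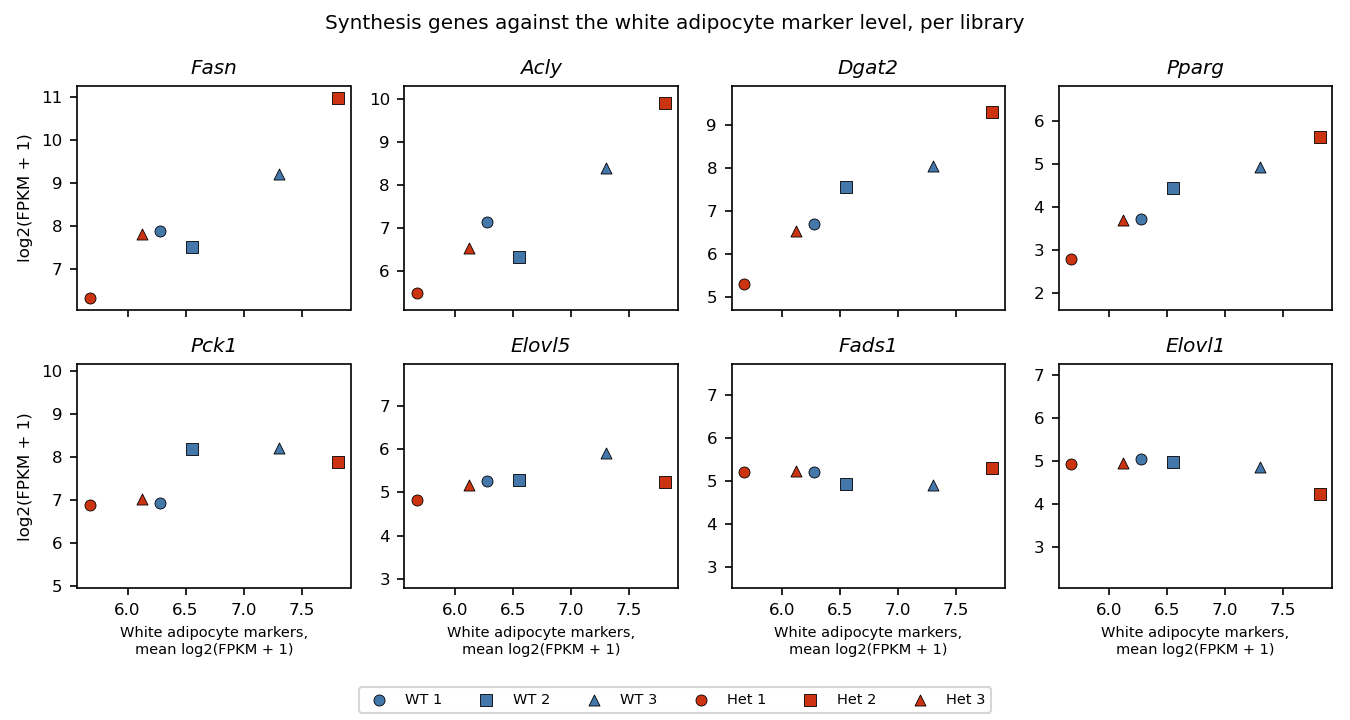
Level of 8 members as log2(FPKM + 1) (vertical axes, each spanning the same number of log2 units) against the mean log2(FPKM + 1) of 10 white adipocyte markers in the same library, with 1 point per library (blue, wild type; red, heterozygote; shapes as replicates). Fasn, Acly, Dgat2 and Pparg climb with the marker level, Pck1 and Elovl5 do not keep climbing at the highest marker level, Fads1 is nearly flat and Elovl1 is lowest in heterozygote replicate 2.

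Between wild type replicates 1 and 2, most fatty acid building genes and most assembly genes differed in opposite directions. Replicate 2 had the higher value for 8 of 10 white adipocyte markers and for all 10 brown adipocyte markers, with Ucp1, the uncoupling protein of brown fat, at 682 FPKM against 117 FPKM in replicate 1. It was also higher for 8 of 9 genes of triglyceride assembly. Among the 6 fatty acid building genes it was higher for Acacb alone, and Acly, Acss2, Acaca, Fasn and Me1 were higher in replicate 1. Leptin (Lep), one of the 2 white adipocyte markers higher in replicate 1, was at 12.5 FPKM there and 3.00 FPKM in replicate 2. These counts rest on 1 library each, include small differences such as that of Lpin3, and have no replicate check. The share of all tested genes higher in replicate 2 was not computed.

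In heterozygote replicate 2 some members exceeded the adipocyte markers. The 10 white adipocyte markers were at 1.30 to 3.24 times their wild-type means there, the highest being Lep, and the 9 tested brown adipocyte markers at 0.410 to 2.45 times. Above the whole white adipocyte range were 10 members: Fasn (5.99 times), Me1 (5.39), Acly (5.17), Acss2 (4.77), Acaca (4.52), Srebf1 (4.43), Elovl6 (4.37), Gpd1 (4.13), Dgat2 (3.39) and Scd1 (3.28). Schwann cell markers, which were also highest in this library, summed to 171 FPKM against 95.3 to 116 FPKM elsewhere. Their part in the members' levels was not tested. When the fit also held the markers' mean log2 level as a covariate, 0 members passed (0% of all tested genes), 17 had a log2 fold change above 0 and 16 below, and the median was 0.00086. Under that fit Me1 was at 0.67 and Srebf1 at 0.62 (limma adjusted p = 0.149 and 0.180), and Elovl1 was at -0.31 and Lpin3 at -0.435 (limma adjusted p = 0.166 and 0.136). These 4 were the members with an unadjusted p under 0.05, where the covariate fit gave 9.06% of all tested genes as higher and 8.87% as lower at that level.

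The rest of the pathway was not called either. Of the other genes in 4 lists, 81 were tested and 0 passed in either direction. Among 21 tested lipogenic genes outside the members, the mitochondrial citrate carrier Slc25a1 had 6.01 times its wild-type mean in heterozygote replicate 2. The median ratio of the highest to the lowest library was 2.61 over these 21. The 3 with the smallest p were Elovl7, Acsl5 and Hacd2, with log2 fold changes of -0.21, 0.14 and -0.47. Among 17 other genes of glycerolipid metabolism the median ratio was 2.56, and Pck2, Gk and Hilpda had log2 fold changes of 0.33, -0.72 and -0.31. The 24 other regulators had a median ratio of 1.39, and 7 of them were highest in heterozygote replicate 2. Srebf2, the regulator of sterol synthesis, was at 29.6 to 36.4 FPKM in all libraries and its escort protein Scap at 9.01 to 10.3 FPKM. Insig1, which retains that complex in the endoplasmic reticulum, was at 15.4 to 86.8 FPKM. The regulators with the smallest p were Irs2, Usf1 and Cebpb, with log2 fold changes of -0.48, 0.15 and -0.17. Of 19 sterol synthesis genes 18 were highest in heterozygote replicate 2, where 26.4% of all tested genes were, but their median ratio of 3.45 was below the 15.5 of the fatty acid building genes. Among the sterol synthesis genes with the smallest p, Mvk and Tm7sf2 had log2 fold changes of 0.23 and 0.11. The limma adjusted p of the genes in these 4 lists was at least 0.778.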

How the data were processed

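Per the labels' protocols, Trizol-extracted aortic RNA was enriched for mRNA with poly-T beads, copied from random primers and amplified by PCR. The deposited files hold FPKM values calculated by the authors, 1 file per library. Per the submitters' processing notes, the tools included Bowtie2 2.2.3, TopHat2 and HISAT2 2.1.0, on GRCm38, with roles unstated. How reads were counted, and on which annotation, is not given in the sources used here. Multiplied by exon-union lengths (GENCODE M21, GRCm38), the values of genes with at most 20 reads were whole reads within 0.01 for 95.0% to 95.5% of genes, which gave depths of 17283951 to 18372131 reads. Groups and numbers follow the sample titles, since the files' own headers number the heterozygote libraries differently. No 2 libraries held the same values.

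Genes reaching 1 FPKM in 3 or more libraries were tested with limma 3.58.1 (R 4.3.3, mean-variance trend) on log2(FPKM + 1), all 6 libraries, no covariate, with Benjamini-Hochberg adjustment over all tested genes and a threshold of 0.05. Fold changes on this scale understate changes of low genes. Correlations were tested by exact permutation and adjusted over all tested genes, where an adjustment over the members had been planned. The members and gene lists were chosen with earlier results of these data known. Values in every library are given for members with the 6 highest means, the 6 largest ratios of highest to lowest library, or groups without overlap (none had an unadjusted p under 0.05), and the 3 genes with the smallest p are named per pathway list, of which 1 is not reported here. Me1, Elovl1, Scd2, Fads1 to Fads3, Pck1, Lpin3, Srebf1, Slc25a1, Srebf2, Scap and Insig1 were added after their values were seen. Alternatives were the pseudocount, the filter, quantile scaling, array weights, a replicate block, an adipocyte covariate, leaving out each library and, chosen after seeing the data, limma voom on recovered reads. Other software was pandas 2.3.3 and numpy 2.4.6 under Python 3.11.15, with matplotlib 3.10.9 for figures.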

Additional observations from a re-analysis of the deposited data

How the results depend on the processing

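No member passed the adjusted threshold under any of the 13 alternatives, nor did any of the other pathway genes. Over all genes the count called was 0 except with array quality weights, where it was 232, and when 1 library was left out, where it ranged from 0 to 1. The members' median log2 fold change was -0.24, -0.26 with a pseudocount of 0.1, -0.24 without a filter and with the replicate block, -0.22 with quantile normalization, -0.27 with voom, 0.00086 with the adipocyte covariate and -0.39 with array quality weights, and ranged from -0.82 to 0.26 with 1 library left out. Array quality weights gave heterozygote replicate 2 a weight of 0.170 and turned Acly to -0.39, Acaca to -0.36, Fasn to -0.22, Me1 to -0.0734 and Srebf1 to -0.086. The adipocyte covariate turned Elovl6 to 0.0308 and Scd1 to 0.0009. With 1 library left out the log2 fold change ranged from -1.28 to 0.93 for Acly, -1.08 to 0.88 for Acaca, -1.13 to 1.19 for Fasn, -0.71 to 1.14 for Me1, -1.56 to 0.675 for Elovl6, -1.42 to 0.58 for Scd1, -1.59 to 0.73 for Gpd1, -1.51 to 0.48 for Dgat2, -1.67 to 0.49 for Thrsp and -0.45 to 0.97 for Srebf1. The ranges that kept their sign were -0.545 to -0.17 for Lpin3, -0.94 to -0.30 for Pck1, -0.38 to -0.02 for Elovl1 and -0.52 to -0.19 for Elovl5, beside those of the 3 Fads genes. The cause was not tested. Deviations from the group means correlated at 0.508, -0.088 and -0.342 between libraries with the same replicate number. Between libraries with different numbers they correlated at -0.541 to 0.551. These values do not decide whether the numbers pair the libraries, since deviations within a group of 3 are not independent. The replicate block left 0 genes called. With 3 libraries a group and this spread, intervals of several log2 units remain for most members.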
